A study of Mus musculus with 4 samples.

Results

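The miRNAs of mouse ES cells kept in 2iL were compared with those of the same cells kept in serum, across every mature miRNA listed. This comparison takes 2 of the 4 small RNA-seq libraries of the study, and covers all 1907 mature miRNAs of the table. The set is the whole table, so its membership rests on no measured value. The cells were E14Tg2A, a mouse embryonic stem line of 129/Ola origin, grown on gelatin without feeder cells and with LIF at 1000 U/mL in both media. ES serum cells had 10% fetal calf serum. ES 2iL cells had been moved for several passages to a serum-free medium with the supplements N2 and B27, the MEK inhibitor PD0325901 at 1 µM and the GSK3 inhibitor CHIR99021 at 3 µM. Serum, supplements and both inhibitors thus differ together, and their effects cannot be told apart. The other 2 libraries come from epiblast-like aggregates (ELA) made from each kind of ES cell by 2 days as floating aggregates in the same chemically defined medium without serum, inhibitors or LIF. ELA serum and ELA 2iL name the medium of the ES cells they came from, so this pair differs in the origin of its cells and not in its own medium.

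Serum with LIF holds mouse ES cells in a fluctuating mixture of more naive and more primed states, whereas blocking MEK and GSK3 holds them in the ground state, which resembles the preimplantation epiblast. miRNAs are short RNAs cut from hairpin precursors. Each guides an Argonaute protein to target mRNAs mainly through its seed, the bases 2 to 8 from its 5′ end, so that miRNAs with a common seed share many targets. The miR-290/miR-295 cluster is the main miRNA cluster of naive mouse ES cells, the miR-302/miR-367 cluster marks primed cells of the epiblast, and the let-7 family is held back in pluripotent cells by the RNA-binding protein LIN28.

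RNA of 3 sets of experiments was pooled into 1 library for each group, so the ES comparison has no replicate error and no test, and only counting intervals are given. The ES serum library held 8056984 miRNA reads and the ES 2iL library 2767016, which is 2.91 times fewer. The ELA serum library held 4309257 reads and the ELA 2iL library 587363. Values are RPM, the reads of a miRNA scaled to a library total of 1000000 reads on listed miRNAs, so they are shares of the miRNA pool. In bulk RNA, fewer cells of a type and less RNA per cell cannot be told apart. One field of the labels, the description, exchanges the ES 2iL library with the library of ELA made from serum cells. The title, the source name, the days in vitro, the medium and the column name of each library all give the grouping used here.

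The sequences below are those on which the largest differences and the shared seeds turn, with the seed in capitals. They were taken from RefSeq (GRCm38.p6), which held 1623 of the 1907 miRNAs. The first 5 share the seed AAGUGCU although they come from different clusters, that of miR-290 to miR-295 and that of miR-302 with miR-367, which differed in opposite directions. The 3 let-7 miRNAs share another seed and were all higher in 2iL. miR-211-5p, miR-499-5p and miR-196a-5p were among the miRNAs with the largest excess in 2iL. miR-127-3p, miR-99b-5p, miR-409-5p and miR-501-3p were among those higher in serum, and miR-409-3p is the other arm of the miR-409 hairpin.
miR-295-3p: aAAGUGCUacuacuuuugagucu
miR-294-3p: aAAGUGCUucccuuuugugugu
miR-291a-3p: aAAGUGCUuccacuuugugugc
miR-302b-3p: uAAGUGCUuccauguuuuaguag
miR-302d-3p: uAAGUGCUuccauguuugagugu
let-7f-5p: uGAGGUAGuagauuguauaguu
let-7a-5p: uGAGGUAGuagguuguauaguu
let-7g-5p: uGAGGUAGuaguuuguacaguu
miR-211-5p: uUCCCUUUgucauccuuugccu
miR-499-5p: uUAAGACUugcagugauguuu
miR-196a-5p: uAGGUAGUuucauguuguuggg
miR-127-3p: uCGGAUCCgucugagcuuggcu
miR-99b-5p: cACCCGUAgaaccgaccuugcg
miR-409-5p: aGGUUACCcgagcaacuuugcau
miR-409-3p: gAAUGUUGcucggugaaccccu
miR-501-3p: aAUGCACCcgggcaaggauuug

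The ground state and serum shared most of their miRNAs and differed in their proportions. Reads were present in both libraries for 861 miRNAs, in either for 1142, and in neither for 765. A value of exactly 0 can stand for a miRNA that was not counted: 705 miRNAs were listed at 0 in all 4 libraries, and for 7 of these the other arm of the hairpin was expressed, as for miR-30e-3p. Such miRNAs are called listed at 0 here, not absent. At 1.08 RPM or more, which is 3 reads in the shallower library, 668 miRNAs were seen in serum, 741 in 2iL and 626 in both. A total of 310 miRNAs passed the limit of expression, a mean log2(RPM + 1) of at least 5 over both libraries, which equals 31 RPM. They held 99.6% of the reads of each library. Among them 102 (32.9%) were higher in 2iL and 46 (14.8%) were lower by at least 1 on the log2 scale, a difference of 2-fold. The counting interval of the fold lay wholly past 2-fold for 87 of the 102 and for 43 of the 46. With the limit of 31 RPM set on the serum library alone, an alternative chosen after the data had been seen, 78 (25.9%) of 301 miRNAs were higher and 60 (19.9%) lower. The SD of the log2 difference was 1.70 and its quartiles were −0.35 and 1.28.

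The excess of higher miRNAs depended on the scaling of the libraries. The median difference of the 310 miRNAs was 0.50 under RPM, 0.01 with TMM factors and 0.10 with the size factors of DESeq2. With the median set to 0, 55 miRNAs were higher and 73 lower. Of the miRNAs past the threshold, 68.9% were higher as deposited. This share was 44.1% with TMM (56 higher and 71 lower), 48.4% with the DESeq2 factors (62 and 66) and 56.5% when totals left out the 5 most abundant miRNAs (78 and 60). Differences below are under RPM as deposited, and "relative" gives the difference minus the median of 0.50. A miRNA with a difference between 0 and 0.50 is therefore higher under RPM and below the median miRNA.

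**Figure D1:**
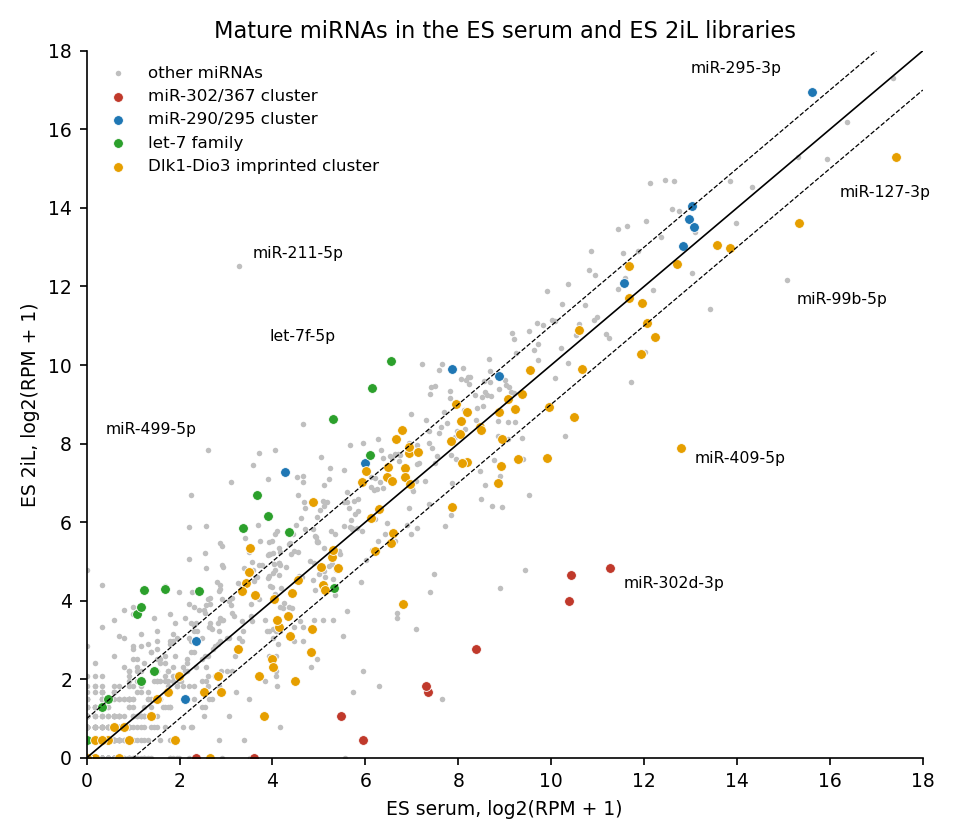
Level of each of the 1907 mature miRNAs as log2(RPM + 1), in ES serum on the horizontal axis and in ES 2iL on the vertical axis, with 1 library a group. The solid line marks equal levels and the dashed lines a difference of 1. The miR-302/miR-367 miRNAs (red) lie far below the line, the let-7 family (green) mostly above it, and miR-211-5p stands alone at 8.69 RPM in serum and 5847 RPM in 2iL.

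The miR-290/miR-295 cluster, whose miRNAs promote the rapid ES cell cycle, took 8.61% of the reads in serum and 18.3% in 2iL. Of its 18 miRNAs 10 were expressed, 5 of these were higher and 0 lower, against 32.9% and 14.8% of all expressed miRNAs, and their median difference was 0.94 (relative 0.44). With the limit set on serum alone, 4 of 9 were higher. Another 6, both arms of miR-290a and of miR-292a with miR-290b-5p and miR-292b-5p, were listed at 0 in all 4 libraries, so the share of the cluster is without them. miR-295-3p alone measured 49948 RPM in serum and 126073 RPM in 2iL, 2.52-fold (95% counting interval 2.51 to 2.54) higher. No other miRNA gained as large a share of the library, 7.61 percentage points. The members were not uniform. miR-291b-3p was 18.4 RPM in serum and 153 in 2iL (log2 difference 2.99), and miR-294-5p was 233 and 957 RPM (2.04). miR-293-3p measured 7303 and 8382 RPM, which was above 0 under RPM (0.20) and below the median miRNA (relative −0.31).

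The miR-302/miR-367 cluster showed the opposite and larger difference, at 0.595% of the reads in serum and 0.00784% in 2iL, a ratio of 75.9. All 10 of its listed miRNAs had a lower level in 2iL, although only 4 passed the limit of expression. miR-302d-3p measured 2451 RPM in serum and 27.5 RPM in 2iL (19748 and 76 reads), 89.2-fold (95% counting interval 71.3 to 113) lower. miR-302a-3p measured 1343 and 14.8 RPM, and miR-302b-3p 1384 and 24.2 RPM. The other arms were low as well, with miR-302a-5p at 335 RPM in serum and 5.78 in 2iL. miR-302c-5p had 488 reads in serum and 1 in 2iL, and miR-367-3p had 353 and 3. The hairpins lie on chromosome 3 at chr3:127248146-127248725 (mm9), inside an intron of the antisense gene Larp7. In the ELA pair the cluster was also lower in 2iL, from higher levels: miR-302d-3p measured 16726 RPM in the serum library and 2930.0 RPM in the 2iL library.

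Because both clusters use the seed AAGUGCU, the pool of that seed differed in its makeup as well as its size. The 5 miRNAs with this seed and a known sequence took 6.55% of the reads in serum and 14.2% in 2iL. Those of the miR-302 hairpins supplied 5.86% of the seed's reads in ES serum (Wilson 95% interval 5.79 to 5.92) and 0.0363% in ES 2iL (0.0308 to 0.0428). In ELA they supplied 37.4% in serum and 3.91% in 2iL. miR-302a-3p and miR-302c-3p are not among the 5, as RefSeq gave no sequence for them. With both added, the miR-302 share was 7.97% in ES serum (7.90 to 8.04) and 0.0483% in ES 2iL (0.0419 to 0.0556). The seed was thus more abundant in 2iL while almost all of it came from miR-295-3p, miR-294-3p and miR-291a-3p.

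The oncogenic miR-17/miR-92 cluster and its paralogs, which drive proliferation, did not behave alike. The miR-17/miR-92 cluster took 9.19% of the reads in serum and 8.64% in 2iL, and of its 10 expressed miRNAs 2 were higher (20%) and 1 lower (10%), both below the shares of all expressed miRNAs (32.9% and 14.8%), with a median of 0.44 under RPM (relative −0.06). miR-92a-3p measured 84294 RPM in serum and 74623 in 2iL, and it is also made from the X-linked hairpin Mir92-2. Without it the cluster took 0.757% of the reads in serum and 1.18% in 2iL, the other direction. The miRNAs made from no hairpin outside the cluster took 0.555% and 0.671%. miR-19a-3p was at 403 and 1141 RPM, 2.83-fold higher, and miR-18a-3p at 433.8 and 189.7 RPM, 2.29-fold lower. The X-linked miR-106a/miR-363 cluster was lower, at 0.661% of the reads in serum and 0.227% in 2iL, with 4 of its 6 expressed miRNAs lower, against 14.8% of all. miR-363-3p measured 4159.5 RPM in serum and 1291 in 2iL, and miR-18b-3p 423 and 83.8 RPM. The miR-106b/miR-25 cluster in Mcm7 was higher, at 1.23% and 2.35% of the reads, and 3 of its 6 miRNAs passed the threshold upward, against 32.9% of all. miR-93-5p was at 2778 RPM in serum and 11258 RPM in 2iL. Paralogs with nearly the same sequence, such as miR-18a-5p and miR-18b-5p, can share reads, and how such reads were assigned is not given in the sources used here.

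**Figure D2:**
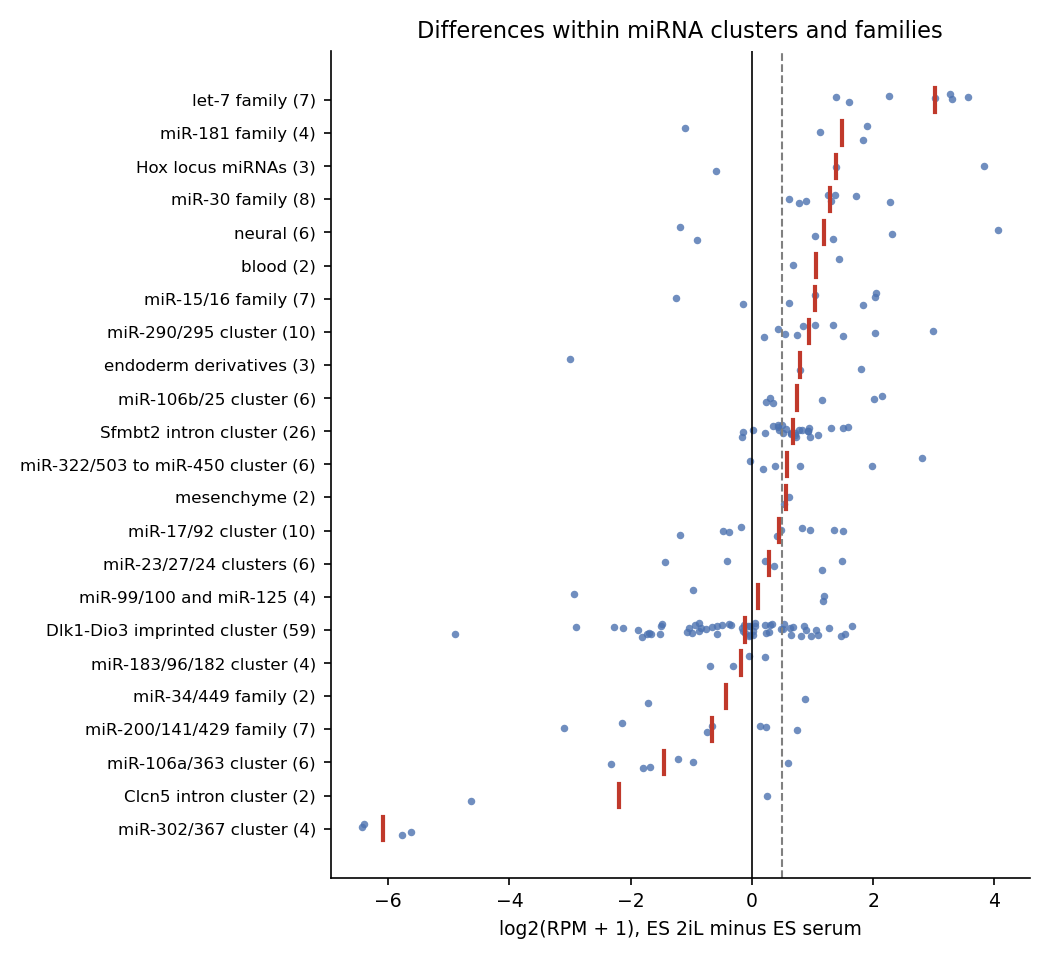
Difference in log2(RPM + 1), ES 2iL minus ES serum, of each expressed miRNA (points) in 23 clusters, families and marker lists, with the number of expressed members in brackets and their median as a red bar. The solid line is 0 and the dashed line the median of all 310 expressed miRNAs, 0.50. The median of the let-7 family is 3.01 and that of the miR-302/miR-367 cluster −6.09.

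Most members of the let-7 family, which push stem cells toward differentiation, were higher in the ground state. Of 21 listed miRNAs 7 were expressed, and these 7 were higher by at least 1, with a median of 3.01 (relative 2.51), against 32.9% of all expressed miRNAs. Some of them, such as let-7e-5p, passed the limit of expression through their level in 2iL. Of the 5 that reached 31 RPM in serum, 4 were higher, against 25.9% of all that did, and let-7c-5p was at 38.8 RPM in serum and 19.2 in 2iL (−0.98). let-7f-5p measured 92.5 RPM in serum and 1107 RPM in 2iL, 11.97-fold (95% counting interval 11.0 to 12.99) higher. let-7g-5p was at 69.4 and 677 RPM, let-7a-5p at 38.7 and 392.5 RPM, and let-7e-5p at 11.8 and 102 RPM. Of the 7, miR-98-5p differed least, with 19.5 and 52.4 RPM. The family remained a small part of the pool, with 0.0375% of the reads in serum and 0.277% in 2iL. The let-7 miRNAs differ from each other by few bases, so reads may be shared among them.

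Of the miRNAs that are transcribed with let-7 or often act beside it, miR-99b-5p was lower in 2iL. It measured 34737 RPM in serum and 4557 RPM in 2iL, 7.62-fold (95% counting interval 7.49 to 7.76) lower, a loss of 3.02 percentage points of the library. Its cluster neighbours on chromosome 17 were higher: miR-125a-5p was at 899.7 RPM in serum and 2056 in 2iL, and let-7e-5p is given above. As a result the miR-99/miR-100 and miR-125 group took 3.58% of the reads in serum and 0.676% in 2iL, while its 4 expressed miRNAs split into 2 higher and 1 lower, against 32.9% and 14.8% of all expressed miRNAs. One of the 2, miR-99b-3p, passed the limit of expression through 2iL, and with the limit set on serum alone 1 of 3 was higher and 1 lower. The remaining one, miR-125b-5p, was at 63.7 RPM in serum and 31.8 in 2iL (−0.98), just inside the threshold.

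The miR-30 family took 1.63% of the reads in serum and 3.89% in 2iL, and 5 of its 8 expressed miRNAs passed the threshold upward with 0 downward, against 32.9% and 14.8% of all expressed miRNAs. Their median difference was 1.28, past 1 under RPM and below 1 relative to the median miRNA (0.78). miR-30e-5p was at 6193 RPM in serum and 15933 in 2iL, and miR-30b-5p at 191 and 933 RPM. The miR-15/miR-16 family, which restrains cyclins, took 0.754% and 2.84% of the reads, with 4 of 7 higher and 1 lower. With the limit set on serum alone, which leaves out miR-16-1-3p, 3 of 6 were higher and 1 lower. Within it miR-16-5p was at 6408 and 26385 RPM (4.12-fold higher), whereas miR-195a-5p was at 136.9 and 56.7 RPM (2.41-fold lower). The seed UCAAGUA of miR-26a-5p and miR-26b-5p took 0.520% of the reads in serum and 2.74% in 2iL. In the X-linked miR-322/miR-503 cluster 2 of 6 expressed miRNAs were higher (33.3%) and 0 lower, a share close to that of all expressed miRNAs, with a median of 0.58 (relative 0.08). miR-322-5p, which slows the cell cycle, measured 148 RPM in serum and 1039.8 in 2iL, and miR-351-5p 965 and 3792 RPM, while miR-450a-5p was at 134.9 and 132.3 RPM. The miR-34/miR-449 family, which acts with p53 in cell cycle arrest, had 0 higher and 1 lower of 2 expressed miRNAs. The shares of all expressed miRNAs were 32.9% and 14.8%. With the limit set on serum alone, 0 of 4 were higher and 3 lower, against 25.9% and 19.9% of all. miR-34c-5p was at 473.5 RPM in serum and 143 in 2iL, miR-34a-5p at 327 and 598 RPM, and miR-449a-5p, below the limit of expression, had 423 reads in serum and 6 in 2iL.

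miR-181 miRNAs divided by hairpin. miR-181c-5p measured 3162 RPM in serum and 11821 RPM in 2iL, 3.74-fold (95% counting interval 3.68 to 3.80) higher, and miR-181d-5p 1032 and 2252 RPM. miR-181a-5p, which has the same seed and comes from other hairpins on chromosomes 1 and 2, was at 98.8 RPM in serum and 45.2 in 2iL, 2.19-fold lower. The paralogous clusters of miR-23, miR-27 and miR-24 also held members on both sides, with miR-23b-3p at 296 and 834 RPM and miR-27a-5p at 59.2 and 21.3 RPM. Their median of 0.28 was above 0 under RPM and below 0 relative to the median miRNA (−0.22).

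Among expressed miRNAs the largest single difference was that of miR-211-5p. It measured 8.69 RPM in serum (70 reads) and 5847 RPM in 2iL (16178 reads), 672.96-fold (95% counting interval 532.3 to 864) higher. In the separate ELA libraries it stood at 4.87 RPM in serum (21 reads) and 223.03 RPM in 2iL (131 reads). The sense strand of an intron of Trpm1 holds its hairpin, at chr7:71350692-71350797 (mm9). Trpm1 is a channel gene of pigment cells and the retina, where miR-211 is best known. The passenger strand miR-211-3p had 0 reads in serum and 73 in 2iL. This is 70.9-fold higher with the 0 set to the floor of 3 reads, and the lower 95% counting limit is 56.2-fold.

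The second largest excess among expressed miRNAs was that of miR-499-5p, at 5.09 RPM in serum and 228 RPM in 2iL (44.8-fold). Its hairpin lies in an intron of the muscle myosin gene Myh7b at chr2:155448616-155448694 (mm9). miR-138-5p followed with 12.04 and 216.5 RPM, then miR-365-3p with 7.57 and 129.7 RPM. These miRNAs, miR-211-5p and those named next (miR-152-5p, miR-1981-3p and miR-196a-5p) were below 31 RPM in serum. They passed the limit of expression through their level in 2iL. miR-152-5p, from an intron of Copz2, was at 11.0 RPM in serum and 173 in 2iL, and miR-1981-3p at 15.5 and 228 RPM. miR-196a-5p, whose hairpins lie in the Hox clusters, was at 24.2 RPM in serum and 359 RPM in 2iL. In ELA it was at 3.94 and 191 RPM (17 and 112 reads). The other arm agreed in direction, since miR-499-3p had 2 reads in serum and 25 in 2iL.

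Among expressed miRNAs outside the miR-302/miR-367 cluster, the largest deficits in 2iL were those of miR-409-5p, miR-501-3p, miR-653-5p, miR-203-3p, miR-146a-5p and miR-200a-5p. miR-501-3p, from an intron of the X-linked gene Clcn5, measured 687 RPM in serum and 26.7 RPM in 2iL, 25.7-fold (95% counting interval 20.4 to 32.8) lower. Its ELA values of 777 and 30.6 RPM (3349 and 18 reads) were close to those of the ES pair. By contrast miR-532-5p, the other expressed miRNA of that intron cluster, was at 241 RPM in serum and 287 in 2iL, above 0 under RPM and below the median miRNA (relative −0.26). miR-653-5p, from an intron of the calcitonin receptor gene Calcr, was at 476 RPM in serum and 19.2 in 2iL. miR-203-3p, a miRNA of epithelial differentiation, was at 135 and 8.67 RPM. miR-146a-5p, a target and brake of NF-kB signalling, was at 167 and 17.7 RPM. All of these were also lower in 2iL in the ELA pair.

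Among miRNAs under 3 reads in one ES library, miR-670-3p was the highest of those seen in serum after miR-302c-5p. It had 374 reads (46.4 RPM) in serum and 0 in 2iL, at least 42.8-fold lower against the floor of 3 reads. In ELA it was at 154.3 RPM in serum and 149.8 RPM in 2iL, so its difference was seen in ES cells and was close to 0 in the aggregates. miR-6540-5p had 136 reads in serum and 2 in 2iL. In the other direction, miR-3085-3p had 2 reads in serum and 56 in 2iL.

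**Figure D3:**
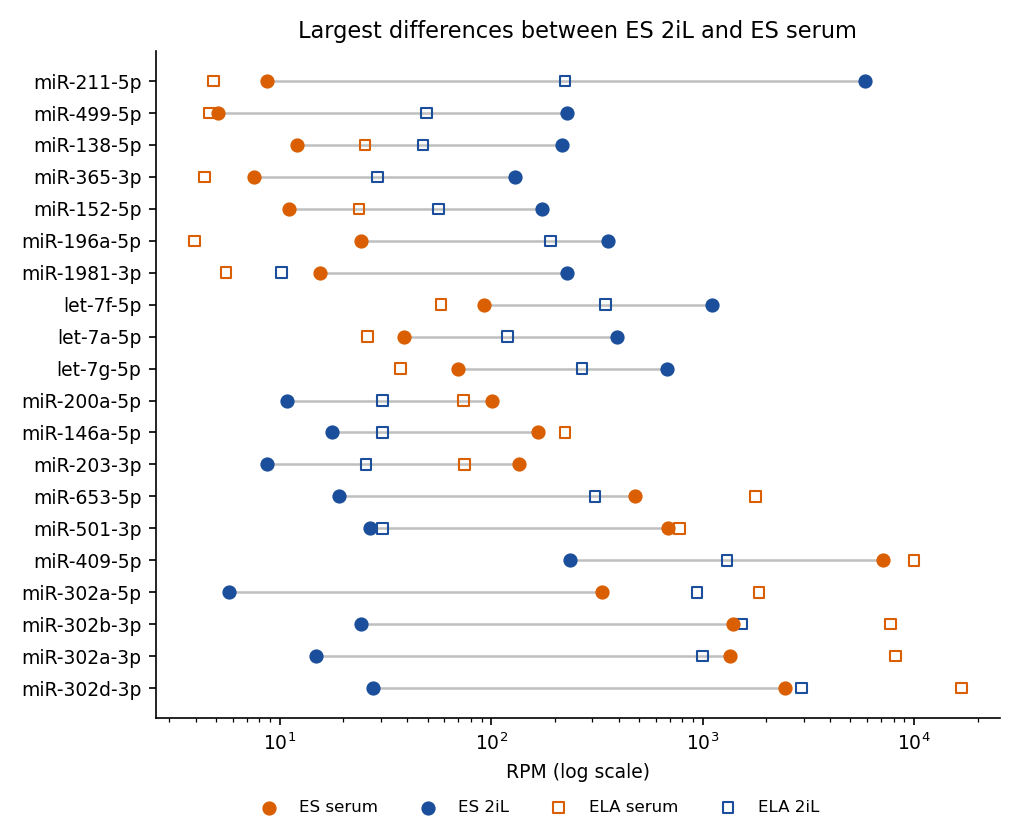
RPM on a log scale of the 10 expressed miRNAs with the largest excess in ES 2iL (upper rows) and the 10 with the largest excess in ES serum (lower rows). Filled circles are the ES libraries joined by a grey line, open squares the ELA libraries, orange for serum and blue for 2iL, 1 library each. In all 20 miRNAs the ELA libraries differ in the same direction as the ES libraries.

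The imprinted Dlk1-Dio3 region of chromosome 12, whose miRNAs are transcribed from the maternal allele, made up 29.7% of the reads in serum and 10.7% in 2iL. miR-127-3p carried most of this. It is antisense to the coding sequence of Rtl1 and was the most abundant miRNA in serum, with 174652 RPM against 40028 RPM in 2iL, 4.36-fold (95% counting interval 4.34 to 4.39) lower. Its share of the library was 13.5 percentage points smaller in 2iL. Without it the region held 12.3% of the reads in serum and 6.69% in 2iL, and without miR-541-5p as well 8.10% and 5.43%. Reads outside the region made up 70.3% of the serum library and 89.3% of the 2iL library, a ratio of 1.27, or 0.35 on the log2 scale.

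The region did not move as a block. Of its 112 listed miRNAs 59 were expressed, of which 6 were higher (10.2%, against 32.9% of all expressed miRNAs) and 14 lower (23.7%, against 14.8%), with a median of −0.12 (relative −0.62). miR-409-5p was furthest down, at 7091 RPM in serum and 237 RPM in 2iL (−4.90), followed by miR-341-5p at 112 and 14.1 RPM and miR-379-5p at 962 and 198 RPM. On the other side, miR-376a-5p was at 28.2 RPM in serum and 91.1 in 2iL, and miR-434-3p was at 3259 and 5915 RPM. The stretch of hairpins from Mir379 to Mir3072 (chr12:110947270-110986170) held 6 higher and 9 lower miRNAs of 37 expressed. In the stretch from Mir341 to Mir370 (chr12:110849710-110856546), 2 of 4 were lower and 0 higher. For both stretches, the shares of all expressed miRNAs were 32.9% higher and 14.8% lower.

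The rodent-specific repeat cluster in an intron of Sfmbt2, a gene imprinted in the placenta, took a larger share in 2iL, 0.357% of the reads in serum and 0.609% in 2iL. Of its 80 listed miRNAs 26 were expressed, 4 of these were higher (15.4%, against 32.9% of all expressed miRNAs, and 3 of 22 with the limit set on serum alone) and 0 lower, with a median of 0.68 (relative 0.18). miR-669a-3p was at 267 RPM in serum and 802 in 2iL. These miRNAs are near copies of each other, so values of single members are uncertain.

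**Figure D4:**
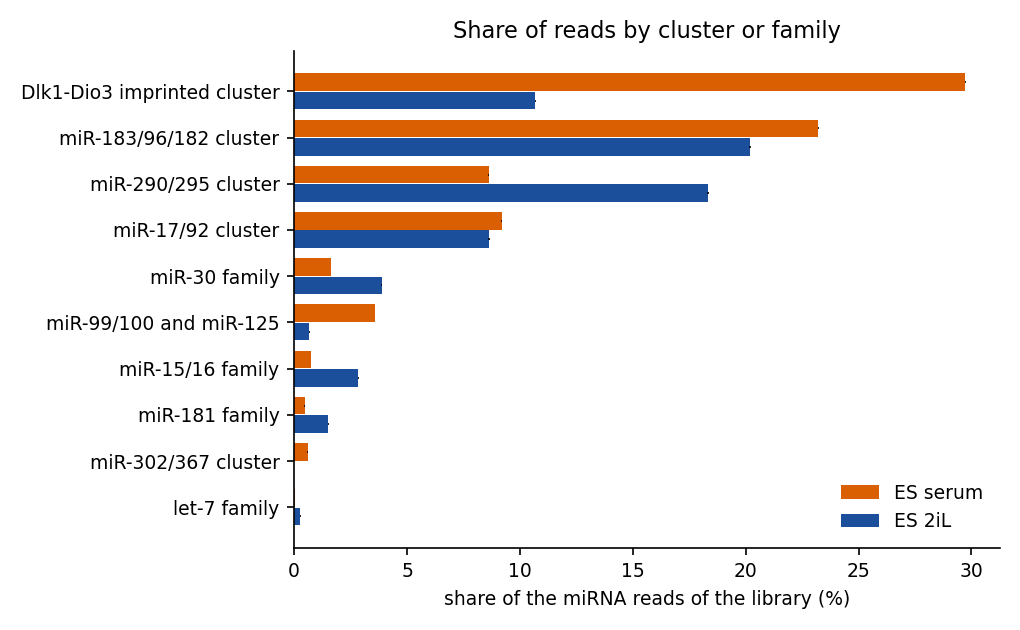
Share of the miRNA reads of each ES library taken by 10 clusters and families, in percent, with Wilson 95% intervals that are too narrow to see at this scale. The Dlk1-Dio3 region takes 29.7% in serum and 10.7% in 2iL, while the miR-290/miR-295 cluster takes 8.61% and 18.3%.

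Epithelial miRNAs gave a mixed picture. The miR-183/miR-96/miR-182 cluster was the most abundant hairpin cluster of both libraries outside the imprinted region, at 23.2% of the reads in serum and 20.2% in 2iL, and 0 of its 4 expressed miRNAs passed the threshold. miR-182-5p, the most abundant miRNA in 2iL, measured 168075 RPM in serum and 161838 in 2iL, and miR-183-5p 62488 and 38537 RPM. In the miR-200 family, which represses ZEB factors and keeps cells epithelial, 2 of 7 expressed miRNAs were lower (28.6%, against 14.8% of all) and 0 higher (against 32.9%), and either seed of the family had members on both sides of 0 under RPM. With the seed AAUACUG, miR-200b-3p was at 3361 RPM in serum and 757.9 in 2iL, whereas miR-429-3p was at 378 and 636 RPM and miR-200c-3p at 185.6 and 203.5 RPM. With the seed AACACUG, miR-200a-3p was at 285 and 179 RPM, whereas miR-141-3p was at 1489.9 and 1744 RPM. Relative to the median miRNA, miR-429-3p was above (0.24), and miR-200c-3p (−0.37) and miR-141-3p (−0.28) were below. miR-200a-5p was at 101 RPM in serum and 10.8 in 2iL.

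Lists of markers of other lineages took at most 0.488% of the reads of an ES library. The mesenchymal list was the largest, at 0.322% in serum and 0.488% in 2iL, nearly all of it miR-143-3p at 3102 and 4729 RPM. Of the endoderm list 3 were expressed, 1 of these was higher (33.3%) and 1 lower (33.3%), against 32.9% and 14.8% of all expressed miRNAs. miR-192-5p was at 1699.5 RPM in serum and 2945 in 2iL, and its cluster partner miR-194-5p at 45.4 and 160.1 RPM, 3.52-fold higher. The lower one was miR-375-3p, a miRNA of endocrine cells, at 102 and 11.9 RPM. The endothelial miR-126 list had 0 expressed members of 4, of which 3 were listed at 0 in all 4 libraries, and the list of plasma and red cells 0 of 9, of which 6 were listed at 0. The liver miRNA miR-122-5p was among those listed at 0, and miR-451a was at 2.48 RPM in serum and 2.17 in 2iL. Of 27 neural miRNAs 6 were expressed, 4 of these were higher and 1 lower, against 32.9% and 14.8% of all expressed miRNAs. With the limit set on serum alone, 3 of 6 were higher and 2 lower. miR-124-3p, the main neuronal miRNA, was at 68.9 and 142.03 RPM, and miR-9-5p, a miRNA of neural progenitors, at 356 RPM in serum and 156 in 2iL. Among 11 muscle miRNAs only miR-499-5p was expressed, while miR-133a-3p had 84 reads in serum and 0 in 2iL and miR-1a-3p had 9 and 0. In the blood list, miR-142a-5p was at 591 RPM in serum and 1605 in 2iL. What share of any difference came from cells of another type was not tested.

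The study transfected 5 miRNAs as candidate regulators of chromatin factors, and 3 of these were higher in 2iL by at least 1, as were 32.9% of all expressed miRNAs. miR-181c-5p (relative 1.40) is described above. miR-425-5p was at 298 RPM in serum and 726 in 2iL (relative 0.78), and miR-27b-5p at 91.5 and 205.6 RPM (relative 0.66). Relative to the median miRNA, only miR-181c-5p was past 1. miR-295-5p was at 468 and 844 RPM (log2 difference 0.85, relative 0.35), and miR-150-5p at 363.3 and 581 RPM (0.68, relative 0.17).

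The ratio of the 2 arms of a hairpin differed between media for many miRNAs, and it does not depend on the scaling of the libraries. Among hairpins with at least 100 reads for each arm over both ES libraries, 49 (37.1%) had a 5p to 3p ratio that was shifted by at least 1 on the log2 scale and 83 did not. The shifts were balanced, 24 toward the 5p arm and 25 toward the 3p arm, and 12 hairpins had a different major arm in 2iL. The counting interval lay wholly past 1 for 31 of the 49. miR-409 shifted most: its 5p arm made up 51.3% of its reads in serum and 3.73% in 2iL (shift −4.77, 95% counting interval −4.88 to −4.65). miR-409-5p accounted for this, since miR-409-3p was at 6721 RPM in serum and 6126 in 2iL. The 5p share of miR-221 was 57.9% in serum and 18.2% in 2iL, and that of miR-145a 29.4% and 85.2%. For miR-99b the 5p share was 99.9% and 98.5% (shift −4.14), as the minor arm miR-99b-3p was at 29.9 and 69.03 RPM while the major arm was lower. The shift of miR-758 (−3.60) rested on 3 reads of its 5p arm in 2iL.

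The SD of the shift over these hairpins was 1.32 between the ES media and 1.13 between ELA of either origin. Between the stages it was 0.67 in serum, where 17 hairpins were shifted by at least 1, and 0.94 in 2iL, where 39 were, against 41 between ELA of either origin. The limit of 100 reads was set on the ES libraries alone. ELA 2iL was the shallowest library, with 587363 reads against 4309257 in ELA serum. Shifts that involve ELA 2iL therefore carry more counting error, and how much of their spread it made up was not tested. Of the 49 hairpins shifted between the ES media, 40 had a shift of the same sign between ELA of either origin, and 26 were shifted the same way by at least 1. The share with the same sign over all hairpins of the set was not counted. With at least 20 reads for each arm in both ES libraries, 44 of 121 hairpins were shifted. Whether the difference between media arose in the cells or in the making of the libraries was not tested.

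**Figure D5:**
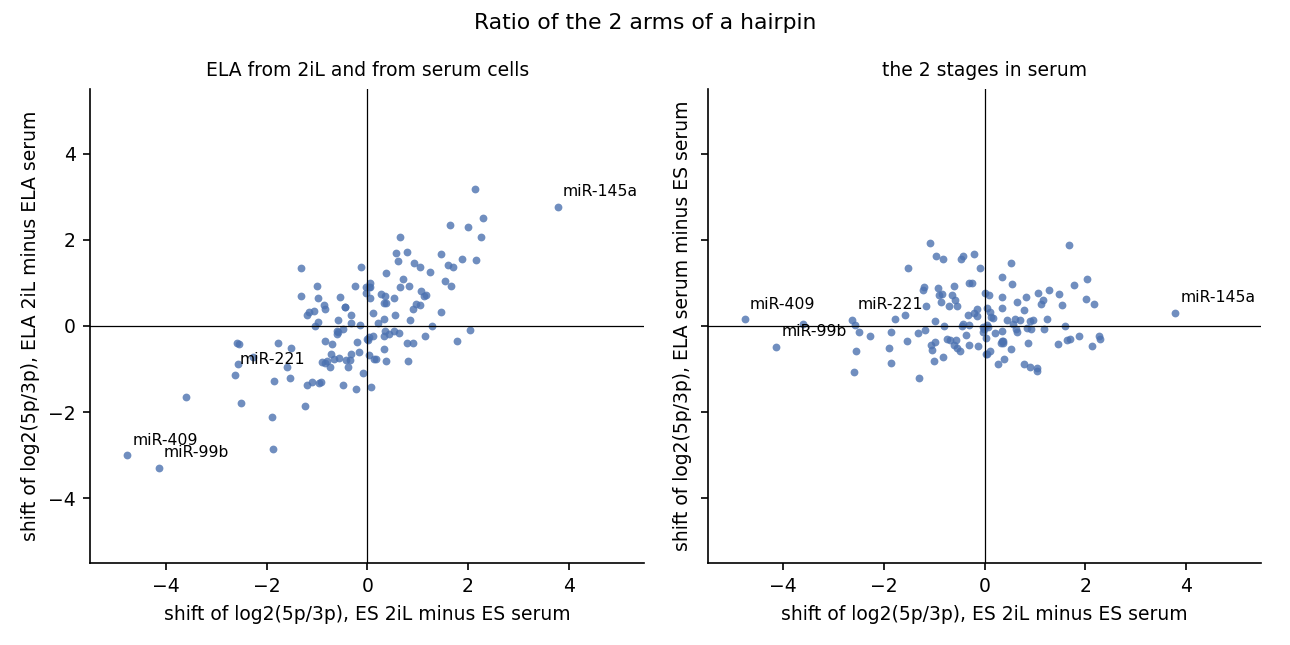
Shift of the log2 ratio of 5p to 3p reads of each hairpin with at least 100 reads per arm, between ES 2iL and ES serum (horizontal axis of both panels), against the shift between ELA 2iL and ELA serum (left) and between ELA serum and ES serum (right), with 1 library a group. In the left panel miR-409, miR-99b and miR-145a are shifted the same way in the ES and the ELA pair, and in the right panel, which shares the ES serum library with the horizontal axis, they lie close to 0.

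Where both arms of a hairpin were expressed, they mostly lay on one side of the median miRNA. This held for 51 of 75 hairpins. Both arms were higher by at least 1 in 14 hairpins and lower in 5, and 2 hairpins had arms past the threshold in opposite directions. Hairpins within 10 kb of each other in mm9 formed 24 clusters with at least 2 expressed miRNAs, of which 10 held higher miRNAs with 0 lower, 9 held lower miRNAs with 0 higher, and 2 held both. The Mir296 to Mir298 cluster beside the imprinted gene Gnas (chr2:174092548-174093086) had 3 of 3 expressed miRNAs higher, against 32.9% of all, and it took 0.575% of the reads in serum and 2.73% in 2iL. The X-linked Mir743 to Mir465d cluster (chrX:64029932-64075888) had 2 of 3 lower, against 14.8% of all.

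The median GC content was 45.5% for the higher miRNAs with a sequence (n = 90), 47.8% for the lower (n = 42) and 47.8% for the rest (n = 126). A CG dinucleotide was present in 30.0% of the higher miRNAs, a smaller share than in the lower (42.9%) and the rest (45.2%). Ligation and amplification of small RNAs depend on sequence, and how far this shaped the differences was not tested.

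The pair of ELA libraries, made after 2 days in one medium, compared the same 2 origins in separate libraries. Over the same 310 miRNAs, 74 (23.9%) were higher and 22 (7.1%) lower in ELA 2iL by at least 1. Of the 102 miRNAs higher in ES 2iL, 93 were also higher in ELA 2iL than in ELA serum and 48 passed the threshold there, which is 47.1% of the ES calls and 64.9% of the ELA calls. Of the 46 lower miRNAs, 38 had the same sign and 19 passed, which is 41.3% of the ES calls and 86.4% of the ELA calls. The median difference of the miRNAs expressed in ELA was 0.35 under RPM, so a positive sign was the more common one there. The share of each sign over all 310 miRNAs was not counted. In either direction 0 passed the threshold with the opposite sign. The differences were larger in ES cells for 86 of the 102 and for 43 of the 46. The median of the higher miRNAs was 1.56 in ES cells and 0.98 in ELA, and that of the lower ones −1.90 and −0.69, although the miRNAs had been picked on the ES values.

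A test was possible only for the origin of the cells, 2iL or serum, over both stages. limma on log2(RPM + 1), with origin and stage as terms and 1 residual degree of freedom, called 0 of 599 miRNAs (0%) at an adjusted p of 0.05, while 176 had an unadjusted p under 0.05 and the smallest adjusted p was 0.0899. The quasi-likelihood test of edgeR on the whole reads, an alternative chosen after the data had been seen, called 64 (10.7%), 22 higher and 42 lower, and with its robust option 97, 34 higher and 63 lower. The 64 included 16 of the 102 miRNAs higher in ES 2iL, 24 of the 46 lower, and 0 of the other 162 expressed. The fit uses the same ES libraries that gave these differences, so the overlap is in part built in. By edgeR the adjusted p was 6.73e-05 for miR-501-3p, 0.00016 for miR-211-5p, 0.00125 for miR-99b-5p, 0.00221 for miR-302d-3p, 0.00356 for let-7f-5p and 0.0305 for miR-127-3p. It was 0.274 for miR-295-3p, which was higher in 2iL in 2 of 2 pairs of libraries. With limma on the values as deposited none of these passed. With TMM scaling, which edgeR also uses, limma called 73, 19 higher and 54 lower, so the scaling differs between the fits as well as the test.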

How the data were processed

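Small RNA was sequenced from 4 libraries, 1 for ES cells of either medium and 1 for ELA from each, on a MiSeq in single reads after preparation with the TruSeq Small RNA kit. The authors demultiplexed with CASAVA 1.8, trimmed adaptors with Trimmomatic, mapped to mm9 with Bowtie, used featureCounts to sum reads over mature miRBase miRNAs, and deposited the sums as RPM (a total of 1000000 per library). Aligner settings, mismatches and the assignment of reads with several matches are not given in the sources used here. All 4 columns were used.

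All deposited RPM values (100%, within 0.01 read) were whole multiples of 1 read, which returned the read numbers. A count of 3 reads, the floor, equals 0.372 RPM (serum) and 1.08 RPM (2iL) in ES cells, and 0.696 and 5.11 RPM in ELA. Differences are in log2(RPM + 1), which understates those of low miRNAs. Folds have exact (Clopper-Pearson) and shares Wilson 95% intervals, and shifts of arm ratio an approximate one from the reads of the 4 values. The reads carry no molecular identifiers, so intervals and floors reflect counting error alone. A miRNA was expressed at a mean log2(RPM + 1) of at least 5 over both ES libraries, and higher or lower from a log2 difference of 1.

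The origin of the cells (2iL or serum ES culture) was fitted over 4 libraries with stage as a term, for 599 miRNAs that reached 10 reads in 2 or more libraries, with limma 3.58.1 and, as an alternative chosen after the data had been seen, edgeR 4.0.16 on the whole reads (with and without its robust option), two-sided with Benjamini-Hochberg adjustment. Both were tested on simulated data. The study names edgeR for differential expression, but 1 library a group allows no such test of the ES pair. Scalings by TMM and by DESeq2 1.42.0, pseudocounts of 0.5 and 5, and other filters were tried. Hairpins from RefSeq were located in mm9 by exact match (940 of 955 once) and annotated from GENCODE.

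The miRNAs named are the 10 largest differences in each direction, the 5 most abundant of each ES library, the 5 largest shifts of arm ratio, the most abundant and the extreme members of each list, the 5 miRNAs the study transfected and the 3 highest seen in 1 ES library only. Other members of a described list, and the miRNAs with the largest differences in share, were added after their values were seen. The members, lists and rules were chosen with earlier results of these data known.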

Additional observations from a re-analysis of the deposited data

Results flagged for a closer look

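For 6 named miRNAs past the limit of expression the difference between 2iL and serum passed 1 on the log2 scale in ES cells and had the opposite sign in ELA under RPM. With 1 library a group, the difference between the stages was not tested. miR-221-5p differed by −2.79 in ES cells and by 0.07 in ELA. miR-375-3p differed by −2.99 in ES cells and by 0.40 in ELA. miR-34c-5p differed by −1.72 and 0.01, miR-27a-5p by −1.43 and 0.49, and miR-195a-5p by −1.26 and 0.35. In the other direction, miR-27b-5p differed by 1.16 in ES cells and by −0.30 in ELA. The sign in ELA depends on the scaling: relative to the median of the miRNAs expressed in ELA, miR-221-5p was at −0.28 and miR-34c-5p at −0.34, the sign of the ES pair, and miR-195a-5p (0.0065), miR-375-3p (0.054), miR-27a-5p (0.14) and miR-27b-5p (−0.65) kept the opposite sign.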

How the results depend on the processing

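The number of miRNAs higher in ES 2iL was 102 as reported, 56 with TMM, 62 with the size factors of DESeq2, 55 when centred on the median 78 with the filter on serum alone (chosen after the data had been seen) and 259 with no filter on low values. The number lower was 46 as reported, 71 with TMM, 73 when centred, 60 with the filter on serum alone and 123 with no filter. Pseudocounts of 0.5 and 5 gave 102 and 101 higher and 46 lower each. The term for origin over both stages gave 0 calls with limma, 130 with no filter, 73 with TMM, 64 with edgeR and 97 with its robust option. With a minimum of 10 reads instead of 100 for each arm, 81 of 227 hairpins were shifted. Median differences of lists changed sign for 4 of 25 lists: the miR-17/miR-92 cluster (−0.046 with TMM, −0.060 centred), miR-99/miR-100 and miR-125 (−0.38 with TMM, −0.29 with DESeq2 size factors, −0.17 without the 5 most abundant miRNAs, −0.40 centred), the miR-23/miR-27/miR-24 clusters (−0.21, −0.11 with DESeq2 size factors, −0.22 centred) and the miR-29 family, with 1 expressed member (−0.0022 with TMM, −0.020 centred). These shifts follow from the scaling itself, which moves all miRNAs together. For the 93 miRNAs named by rule, 321 of 558 alternative values lay outside the counting interval of the fold, and 0 turned a called difference around. No paired analysis was possible because each group has 1 library, so no replicates can be blocked (stage was a term of the fit over 4 libraries). No ES result has a replicate error, so the depth of 2767016 reads in 2iL limits only the counting precision of low miRNAs.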

Other observations

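Several abundant miRNAs outside the lists above differed in their share of the library and were picked for this after their values were seen. miR-26a-5p, a miRNA that restrains the cell cycle, took 0.446% of the reads in serum and 2.56% in 2iL. miR-298-5p, from the imprinted Gnas region, took 0.558% and 2.68%. miR-148a-3p, which can target the DNA methyltransferase Dnmt1, took 1.48% and 2.61%, and miR-186-5p took 0.419% and 1.31%. In the other direction, miR-21a-5p, a miRNA of growth and survival that is low in naive ES cells, took 1.10% of the reads in serum and 0.274% in 2iL. Each group has 1 library, so none of these differences was tested.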
